A study of Mus musculus with 4 samples.

Results

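The genes described here are 10 members of the NF-kB system, chosen by name from the 31053 genes measured: the subunit genes Nfkb1, Nfkb2 and Relb, the inhibitor genes Nfkbia, Nfkbib and Nfkbie, the nuclear I-kappa-B genes Nfkbiz, Nfkbid and Bcl3, and the feedback inhibitor gene Tnfaip3. They were followed across immune cell classes of the mouse lung and between Lmna KO and WT libraries. Lmna KO mice were Lmna-flox/flox Vav1-cre+/-, and WT mice were Lmna-flox/flox Vav1-cre-/-. All were C57BL/6J, carried the floxed Lmna alleles and were 10 weeks old. There were 2 libraries a genotype, each of live CD45.2+ lung cells, counted as unique molecular identifiers (UMIs) per gene and cell with a 3-prime single-cell kit. The labels give 2 mice a genotype, and each library was taken as 1 mouse. Vav1-cre expresses Cre in blood-forming cells and their descendants. Every KO and no WT mouse carried Cre, so an effect of Cre alone and an effect of losing Lmna cannot be told apart.

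NF-kB is a family of dimeric transcription factors that most cells hold inactive in the cytoplasm. I-kappa-B proteins bind the dimers there, and signals from Toll-like, interleukin-1 and tumor necrosis factor receptors lead to their breakdown, after which the dimers enter the nucleus. Several inhibitor genes are themselves NF-kB targets and form negative feedback loops, while nuclear I-kappa-B proteins adjust which target genes respond. In the lung, alveolar macrophages and neutrophils use this pathway to start inflammatory gene expression.

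The 4 libraries had 4164 and 3860 barcodes in Lmna KO and 4322 and 4182 in WT, and 21780914 to 27045250 UMIs each. After filtering, 3655 and 3488 KO cells and 3817 and 3760 WT cells remained, and any pair of libraries shared 2 to 7 barcodes. Clusters were named with the ending "-like" from marker genes, or by their leading genes where markers did not settle the name. WT 2 stood apart in that 487 of its cells lay in clusters named T cell precursor-like, against 17 to 25 cells in the other libraries. Before doublet removal, the cluster led by Rag1 held 297 WT 2 cells, 7 KO 2 cells and 0 cells of KO 1 and WT 1. The other, led by the cell cycle gene Top2a, held 213 WT 2 cells and 17 to 25 cells of each other library. These cells entered no comparison. In 11 classes every library had at least 25 cells, and UMIs were summed per library and class there. Alveolar macrophage-like cells were the scarcest in KO libraries, with 52 and 32 cells against 224 and 234 in WT libraries. All 10 of their markers were detected, and the markers summed to 23200 and 19470 CPM (counts scaled to an equal library total) in KO and 21520 and 22220 CPM in WT. Lmna itself was at 58.9 and 80.7 CPM in KO and 376 and 335 CPM in WT alveolar macrophage-like cells (log2 fold change -2.36, adjusted p = 1.56e-11). Which part of Lmna is floxed is not given, so the remaining 3-prime counts do not measure how completely it was deleted.

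Start regions of 3 members are shown because they carry the letters that NF-kB dimers bind in known targets. RefSeq windows on GRCm38.p6, the mm10 assembly, run from 250 bases before to 50 bases after the start, and 7 of the 10 members matched 12 such windows. Capitals mark matches on either strand to the kappa-B consensus, a palindromic G-rich and C-rich run that is a stricter form of GGG and CC around 5 free bases. Positions are those of the first capital, counted from the start on the strand of the gene. The first is Nfkbia (chr12:55492598-55492897, minus strand), with a match at -29. The next is Tnfaip3 (chr10:19015361-19015660, minus strand), with matches at -125 and -12. The last is Nfkb2 (chr19:46304487-46304786, plus strand), with overlapping matches at -39 and -38 and another at -11.
Nfkbia: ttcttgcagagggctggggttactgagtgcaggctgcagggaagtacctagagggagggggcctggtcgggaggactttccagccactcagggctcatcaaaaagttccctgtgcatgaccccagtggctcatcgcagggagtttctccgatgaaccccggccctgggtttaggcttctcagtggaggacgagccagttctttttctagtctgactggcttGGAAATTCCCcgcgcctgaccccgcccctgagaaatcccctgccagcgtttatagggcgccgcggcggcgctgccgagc
Tnfaip3: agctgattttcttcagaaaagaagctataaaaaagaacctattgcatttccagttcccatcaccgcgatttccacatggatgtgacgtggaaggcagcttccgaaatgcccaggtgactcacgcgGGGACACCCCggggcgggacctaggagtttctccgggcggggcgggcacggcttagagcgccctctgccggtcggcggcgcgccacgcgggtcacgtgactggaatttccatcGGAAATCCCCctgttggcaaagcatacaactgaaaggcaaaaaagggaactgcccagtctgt
Nfkb2: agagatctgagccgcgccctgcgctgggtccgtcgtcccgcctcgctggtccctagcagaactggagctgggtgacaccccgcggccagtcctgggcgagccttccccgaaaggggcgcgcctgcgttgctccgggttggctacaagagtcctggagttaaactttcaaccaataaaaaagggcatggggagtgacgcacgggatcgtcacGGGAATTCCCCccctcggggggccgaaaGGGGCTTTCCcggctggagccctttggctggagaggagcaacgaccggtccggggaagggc

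The consensus was present in 8 of the 12 member windows and in 8.46% of all 32841 windows of the table. It was chosen after the promoters were seen, so these shares are no test of enrichment. Some windows of Nfkb2 overlap and share a match, and Nfkbiz, Nfkb1 and Relb had no window. The looser form was in 11 of the 12 and in 50.8% of all windows. Bcl3, Nfkbid and Nfkbie had at least 1 window with a consensus match, and the Nfkbib window had none. A match describes letters and does not show that a factor binds there.

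The main comparison asked whether the members differed between Lmna KO and WT cells of the same class. Among alveolar macrophage-like cells, whose type clears the airspaces of particles and surfactant, 3 of 10 members were lower in KO and 0 were higher at an adjusted p under 0.05. They were Nfkbiz, Tnfaip3 and Nfkbia. Over all 9060 genes tested in these cells 6.92% were called, 3.27% lower and 3.65% higher in KO. The median log2 fold change was -0.13 over the 10 members and -0.00058 over all genes tested.

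Nfkbiz (ENSMUSG00000035356, chromosome 16, 55811375 to 55838899, minus strand) encodes a nuclear I-kappa-B protein that works as a coactivator of secondary response genes such as Il6 in macrophages. It was at 46.5 and 43.2 CPM in KO alveolar macrophage-like cells, against 174.7 and 147.5 CPM in WT ones, from 30 and 23 UMIs in KO and 665 and 455 UMIs in WT. Both KO libraries lay below both WT libraries, as did 26.3% of genes tested there. The mean was 44.85 ± 2.35 CPM in KO and 161 ± 19.3 CPM in WT (SD, n = 2 libraries each). This is 3.58-fold lower in KO. The log2 fold change was -1.84 ± 0.20 (standard error, edgeR quasi-likelihood test, adjusted p = 8.65e-08). It stayed past the threshold with each library left out, with log2 fold changes of -1.97 to -1.72. With only 2 libraries a genotype an exact permutation test cannot go below 0.333.

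Tnfaip3 (ENSMUSG00000019850, chromosome 10, 19000910 to 19015657, minus strand) encodes A20, a ubiquitin-editing enzyme that shuts down signaling upstream of the I-kappa-B kinases. It was at 136 and 195 CPM in KO and 249 and 261 CPM in WT alveolar macrophage-like cells. The groups did not overlap, and KO 1 was the lowest library. The log2 fold change was -0.63 ± 0.16 (adjusted p = 0.0104). The call was lost without KO 1 (-0.39, adjusted p = 0.258) and without WT 2 (-0.62, adjusted p = 0.0666), and by DESeq2 (adjusted p = 0.0679).

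Nfkbia (ENSMUSG00000021025, chromosome 12, 55489410 to 55492647, minus strand) encodes I-kappa-B alpha, the inhibitor whose rapid breakdown and resynthesis times the NF-kB response. It was at 412 and 518 CPM in KO and 683 and 601 CPM in WT alveolar macrophage-like cells. Both KO libraries again lay below both WT libraries, with a narrow gap. The log2 fold change was -0.47 ± 0.14 (adjusted p = 0.03004). The call was lost without KO 1 (-0.32, adjusted p = 0.335) and without WT 1 (-0.38, adjusted p = 0.303), and by DESeq2 (adjusted p = 0.0942).

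**Figure D1:**
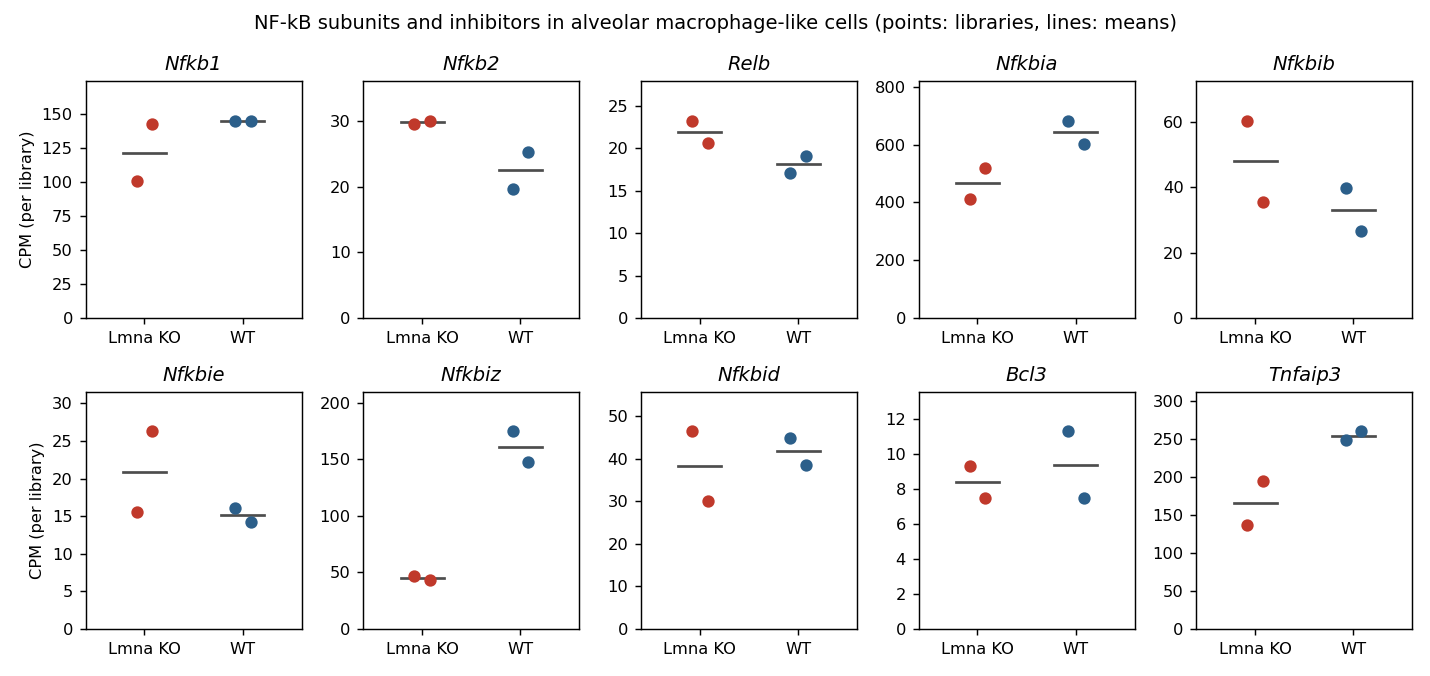
Level of each of the 10 members in alveolar macrophage-like cells, as CPM per library on the y axis and genotype on the x axis (red points, Lmna KO libraries; blue points, WT libraries; lines, means of 2 libraries). Nfkbiz sits at 43.2 and 46.5 CPM in KO and at 147.5 and 174.7 CPM in WT. Nfkbia, Tnfaip3 and, by a narrow gap and without passing the test, Nfkb1 are also lower in both KO libraries than in both WT libraries.

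Of the other inhibitors, none passed the test in alveolar macrophage-like cells. Nfkbib, which encodes I-kappa-B beta, was at 60.5 and 35.7 CPM in KO and 39.7 and 26.6 CPM in WT, with overlapping groups (log2 fold change 0.55 ± 0.27, adjusted p = 0.269). Nfkbie, which encodes I-kappa-B epsilon, was at 15.5 and 26.3 CPM in KO and 16.0 and 14.3 CPM in WT (adjusted p = 0.565). Among the nuclear I-kappa-B genes beside Nfkbiz, Nfkbid had overlapping values of 46.5 and 30.04 CPM in KO and 44.9 and 38.6 CPM in WT (log2 fold change -0.11 ± 0.25, adjusted p = 0.876). Bcl3, whose protein binds p50 and p52 homodimers, rested on 4 to 43 UMIs a library, with a log2 fold change of -0.16 ± 0.52 (adjusted p = 0.910). At that depth a difference of the size seen for Tnfaip3 would not have been detectable for Bcl3.

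The subunit genes did not pass either. Nfkb1, which encodes the p105 precursor of p50, was at 101 and 143 CPM in KO and at 145.3 and 145.2 CPM in WT alveolar macrophage-like cells (log2 fold change -0.27 ± 0.17, adjusted p = 0.408). Nfkb2, which encodes the p100 precursor of p52, was at 29.5 and 30.04 CPM in KO and 19.7 and 25.3 CPM in WT (0.41 ± 0.30, adjusted p = 0.476). Relb, the partner of p52 in the alternative pathway, was at 23.2 and 20.7 CPM in KO and 17.1 and 19.1 CPM in WT (0.29 ± 0.33, adjusted p = 0.701). Nfkb2 and Relb were thus slightly higher in both KO libraries than in both WT libraries, and Nfkb1 was lower in both. Of all genes tested there, 51.3% had groups that did not overlap in either direction.

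Some other quantities moved with genotype in alveolar macrophage-like cells, and their part in these differences was not tested. A list of 26 immediate early genes, known to be switched on within minutes by stimuli and by cell isolation, summed to 6922 and 6606 CPM in KO and 10010 and 8692 CPM in WT. The 8 nonclassical monocyte markers summed to 127 and 180 CPM in KO and 438 and 343 CPM in WT, and none of the 8 was at 0. Most of that sum in each library was Nr4a1, which is also in the immediate early list. Nr4a1 was at 93.0 and 122 CPM in KO and 349 and 262 CPM in WT. The median doublet score was 0.688 and 0.744 in KO and 0.462 and 0.247 in WT. With called doublets kept, Nfkbiz was -1.64 on the log2 scale, KO minus WT (adjusted p = 1.203e-06). The neutrophil markers, whose class had the highest Nfkbiz level of the 11 classes tested, summed to 93.0 and 105 CPM in KO and 127 and 135.5 CPM in WT. A list of 10 genes that mark free RNA from other cells summed to 394 and 714 CPM in KO and 581.5 and 651 CPM in WT, with Hba-a1 at 0. The 8 basophil or mast cell markers, of a class rich in Nfkbiz, Nfkbia and Tnfaip3, summed to 6.20 and 5.63 CPM in KO and 28.4 and 11.35 CPM in WT, with none at 0. Plasma cell markers were likewise lower in both KO libraries (414 and 370 CPM in KO, 436 and 467 CPM in WT), and gamma-delta T cell markers were at 0 CPM in both KO libraries against 0.788 and 2.27 CPM in WT. Marker sums higher in both KO libraries were those of NK cells (2377 and 2112 CPM in KO, 1587 and 1784 CPM in WT), regulatory T cells (721 and 714 CPM in KO, 525 and 558 CPM in WT, with Foxp3 and Il2ra at 0) and conventional dendritic cells 1 (857 and 845 CPM in KO, 808 and 825 CPM in WT). Platelet or megakaryocyte markers (17.05 and 46.9 CPM in KO, 11.8 and 11.35 CPM in WT) and fibroblast markers (1.55 and 3.76 CPM in KO, 0.263 and 1.30 CPM in WT) were higher too. The KO basophil or mast cell sums and all gamma-delta T cell and fibroblast sums rest on few UMIs. For scale, Bcl3 at 9.30 and 7.51 CPM in KO came from 6 and 4 UMIs in these cells. Gaps between such sums lie near the counting floor. The sums of the remaining cell type lists overlapped between genotypes. For the other cell types a sum does not show which genes of its list it comes from. The NK cell list includes Tyrobp and the regulatory T cell list includes Capg. The median mitochondrial share was lower in both KO libraries, at 4.81% and 5.05% in KO and 5.44% and 5.21% in WT. Median UMIs per cell (13660 and 16720 in KO, 16940 and 13410 in WT) overlapped between genotypes.

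Counts per cell were compared after each alveolar macrophage-like cell had been thinned to 6485 UMIs, which left out 12 and 1 KO cells and 14 and 28 WT cells that were shallower. Nfkbiz then averaged 0.275 and 0.226 UMIs per cell in KO and 1.08 and 0.966 in WT. At least 1 Nfkbiz UMI was found in 17.5% (exact 95% interval 7.34% to 32.8%) and 22.6% (9.59% to 41.1%) of KO cells, against 41.0% (34.2% to 47.9%) and 42.2% (35.4% to 49.3%) of WT cells. Without thinning the shares were 28.85% and 34.4% in KO and 58.0% and 50.9% in WT. After thinning the interval of KO 2 overlapped those of both WT libraries, and that of KO 1 lay below both. At least 3 Nfkbiz UMIs were found in 2.5% (exact 95% interval 0.0633% to 13.2%) and 0% (up to 11.2%) of KO cells, against 14.8% (10.3% to 20.3%) and 13.1% (8.82% to 18.5%) of WT cells. Free RNA can give a UMI in cells that do not express a gene, and no class could be taken to lack Nfkbiz. In CD8 T cell-like cells, where its level was low, 11.5% and 11.8% of KO and 17.3% and 12.4% of WT cells had a UMI after thinning to 4016 UMIs, from medians of 5203 to 5914. These cells were thinned to a lower depth, so the KO alveolar macrophage-like shares cannot be told apart from such a level.

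Tnfaip3 averaged 0.75 and 1.16 UMIs per thinned cell in KO and 1.69 and 1.66 in WT. Its share of cells with a UMI was 30% (16.6% to 46.5%) and 48.4% (30.15% to 66.9%) in KO and 53.3% (46.3% to 60.2%) and 55.8% (48.8% to 62.7%) in WT, so that the interval of KO 2 overlapped those of both WT libraries and that of KO 1 overlapped that of WT 1. Nfkbia averaged 2.525 and 3.55 UMIs per thinned cell in KO and 4.27 and 3.90 in WT. A UMI of Nfkbia was in 62.5% and 71.0% of KO cells and 68.6% and 72.3% of WT cells, which overlap. Intervals cover counting error only.

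**Figure D2:**
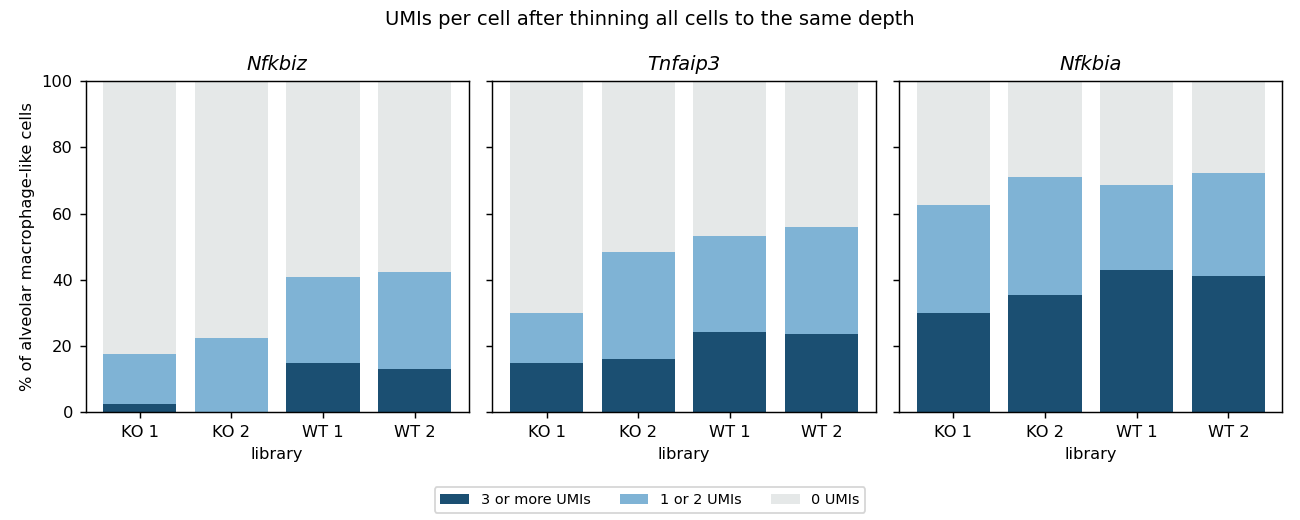
Share of alveolar macrophage-like cells (y axis, percent) with 0, 1 or 2, or at least 3 UMIs of Nfkbiz, Tnfaip3 and Nfkbia in each library (x axis), after thinning every cell to 6485 UMIs. For Nfkbiz a UMI is present in 17.5% and 22.6% of KO cells against 41.0% and 42.2% of WT cells, while for Nfkbia the shares with a UMI overlap between genotypes.

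In the other 10 classes 0 of 99 tests of a member passed by edgeR, and 0 by DESeq2. Of these tests 10 had an unadjusted p under 0.05, and the smallest adjusted p was 0.270. Over all genes the share called was 0.409% in B cell-like, 0.549% in CD4 T cell-like, 0.500% in CD8 T cell-like, 0.526% in classical monocyte-like, 0.682% in nonclassical monocyte-like, 0.579% in neutrophil-like, 0.920% in NK cell-like and 0.649% in regulatory T cell-like cells. It was 0.419% in a cluster led by Ccl5 and Trdc and 1.30% in a cluster led by Retnla and C1qa. Bcl3 had too few UMIs for a test in the Ccl5 and Trdc cluster. Lmna itself had too few there and in CD4 T cell-like, CD8 T cell-like, nonclassical monocyte-like and neutrophil-like cells. Its mean was 3.32 CPM in KO and 3.12 CPM in WT B cell-like cells, and 9.22 CPM and 8.94 CPM in classical monocyte-like cells. Both KO libraries had less Lmna in NK cell-like (adjusted p = 0.0415) and regulatory T cell-like cells (0.0824) and the Retnla and C1qa cluster (0.0504). Loss of Lmna thus could not be checked in all classes.

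Nfkbiz had log2 fold changes of -0.26 to 0.51 in these 10 classes, with adjusted p values of at least 0.622. In neutrophil-like cells, where its level was highest of the tested classes, it was at 1619 and 1305 CPM in KO and 1706 and 1790 CPM in WT (log2 fold change -0.26 ± 0.16, adjusted p = 0.717). In nonclassical monocyte-like cells it was at 315 and 336.5 CPM in KO and 327 and 318 CPM in WT (0.01 ± 0.11, adjusted p = 0.977). Both KO libraries lay below both WT libraries in neutrophil-like cells, as for 19.2% of genes, and the groups overlapped in nonclassical monocyte-like cells.

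The effect in alveolar macrophage-like cells was tested against the mean effect in the other 10 classes, in a fit with library as a block. Over 6695 genes with enough UMIs in every class 3.90% differed, 1.99% with a lower and 1.91% with a higher effect in alveolar macrophage-like cells. Nfkbiz differed by -1.91 ± 0.20 on the log2 scale (adjusted p = 4.94e-10) and Tnfaip3 by -0.61 ± 0.16 (adjusted p = 0.0223). The Tnfaip3 difference was not past the threshold without KO 1 (-0.39, adjusted p = 0.449). For Nfkbia the difference was -0.69 ± 0.20 (adjusted p = 0.0557), which is not past the threshold. With a library left out it was -0.89 without WT 2 (adjusted p = 0.00276), -0.90 without KO 2 (adjusted p = 0.144), -0.49 without KO 1 (adjusted p = 0.515) and -0.48 without WT 1 (adjusted p = 0.193). Nfkbia had log2 fold changes of -0.0018 to 0.37 in the other classes, as in CD8 T cell-like cells with 263 and 275 CPM in KO and 221 and 209 CPM in WT (0.32 ± 0.12, adjusted p = 0.368). The other 7 members had differences of -0.35 to 0.51 with adjusted p values of at least 0.303.

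**Figure D3:**
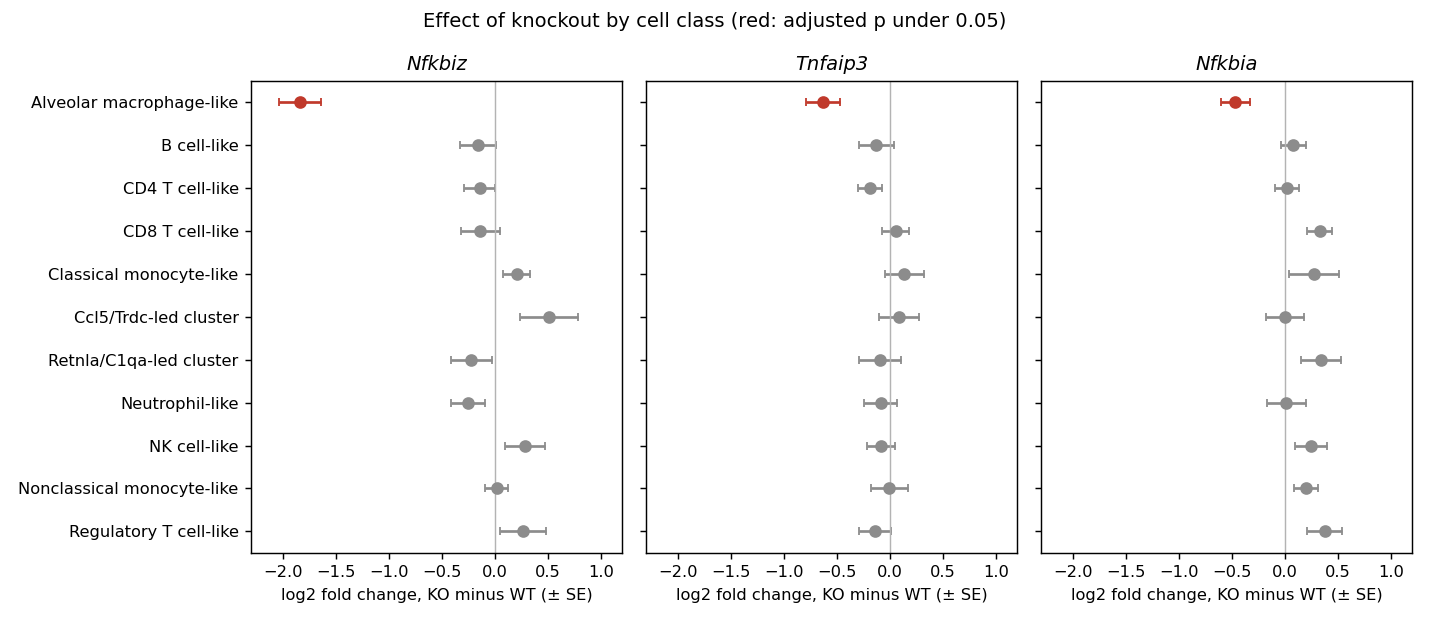
Log2 fold change, KO minus WT (x axis, with standard errors as bars), of Nfkbiz, Tnfaip3 and Nfkbia in each of the 11 classes (rows). Red points passed an adjusted p of 0.05 and all lie in alveolar macrophage-like cells, with Nfkbiz at -1.84, Tnfaip3 at -0.63 and Nfkbia at -0.47.

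By role, the subunit gene Relb had a positive log2 fold change in 10 of 11 classes, from -0.05 in B cell-like cells to 0.53 in classical monocyte-like cells, and passed in none. In classical monocyte-like cells it was at 41.15 and 50.2 CPM in KO and 28.1 and 34.9 CPM in WT (0.53 ± 0.19, adjusted p = 0.421). In 8 classes both KO libraries were above both WT libraries. The share of all genes with that pattern was 20.3% in classical monocyte-like, 20.1% in nonclassical monocyte-like, 20.8% in neutrophil-like, 18.6% in NK cell-like and 19.6% in regulatory T cell-like cells, 17.9% in the Ccl5 and Trdc cluster and 24.4% in the Retnla and C1qa cluster, the classes beside alveolar macrophage-like cells. The classes of a library are taken to come from 1 mouse and are not independent. The other subunit genes had both signs across classes, with Nfkb1 between -0.27 and 0.35 and Nfkb2 between -0.45 and 0.47.

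Nfkbid, which encodes I-kappa-B NS, had the smallest adjusted p outside alveolar macrophage-like cells. In the Retnla and C1qa cluster it was at 32.2 and 55.1 CPM in KO and 67.3 and 73.5 CPM in WT (log2 fold change -0.68 ± 0.27, adjusted p = 0.270). Both KO libraries were below both WT libraries there, as in 23.7% of genes. Without KO 2 the same difference was -1.11 ± 0.35 and passed (adjusted p = 0.0297), so that call depends on 1 library. In regulatory T cell-like cells Nfkbid had the opposite sign, at 61.5 and 66.7 CPM in KO and 26.65 and 48.8 CPM in WT (0.84 ± 0.34, adjusted p = 0.520). Free RNA genes also moved in regulatory T cell-like cells, with Cd74 at 249 and 278 CPM in KO and 21.8 and 37.5 CPM in WT.

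The Retnla and C1qa cluster held a part led by Ccl7 and Mmp12 with 19 and 17 KO cells and 1 and 0 WT cells. Nfkbia was at 1452 and 1360 CPM (unscaled) in the KO cells of that part, and at 806 and 831 in the other KO cells and 771 and 792 in the other WT cells of the cluster. With this part and a neutrophil-like cluster of mostly KO cells left out, 0 members were called outside alveolar macrophage-like cells.

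Levels across the classes were described on a scale normalised over all 44 library and class sums, with no test, since the classes were built from the same cells. All orders given on this scale are among the 11 tested classes, and small classes that could not be tested held higher levels of some members. Neutrophil-like cells had the highest level of 6 members among the 11. Nfkbia was at 3496 ± 528 CPM there (mean ± SD, n = 4 libraries) and at 857 ± 124.5 CPM in the Retnla and C1qa cluster, the next in order. Nfkbiz was at 2575 ± 336 CPM, followed by 330 ± 44.1 CPM in the Retnla and C1qa cluster. Nfkbid was at 1012 ± 222 CPM, followed by 53.8 ± 16.9 CPM in the same cluster. Tnfaip3 was at 940 ± 54.3 CPM, followed by 428 ± 21.7 CPM in regulatory T cell-like cells. Bcl3 was at 151 ± 13.5 CPM, followed by 60.4 ± 5.14 CPM in classical monocyte-like cells. Nfkbie was at 123 ± 13.8 CPM, followed by 64.3 ± 5.91 CPM in the Retnla and C1qa cluster. For each of the 6 the 4 libraries of neutrophil-like cells lay above all libraries of the next class on this scale. Neutrophil-like values were lower with CPM scaled within a class. Tnfaip3 was then at 531 to 605 CPM in neutrophil-like and 490 to 574 CPM in regulatory T cell-like cells. Nfkbie was at 66.9 to 87.55 CPM in neutrophil-like cells and 63.4 to 76.4 CPM in the Retnla and C1qa cluster. Both pairs overlap, so these gaps depend on the scaling.

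Neutrophil-like cells held 40.2% (exact 95% interval 38.75% to 41.7%) and 39.9% (38.4% to 41.4%) of the Nfkbiz UMIs of kept cells in KO libraries and 36.4% (35.1% to 37.7%) and 42.5% (41.1% to 43.9%) in WT libraries. Alveolar macrophage-like cells held 0.685% (0.462% to 0.976%) and 0.574% (0.364% to 0.860%) in KO and 12.7% (11.8% to 13.6%) and 9.46% (8.64% to 10.3%) in WT. That share combines the level in a cell with the number of cells, which also differed between genotypes. For Nfkbid the neutrophil-like share was 57.8% (55.3% to 60.25%) and 52.0% (49.1% to 54.8%) in KO and 46.4% (43.8% to 49.0%) and 45.75% (43.1% to 48.4%) in WT.

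Among the same 11 classes the other members were led by monocyte-like or B cell-like cells. Nfkb1 was highest in nonclassical monocyte-like cells at 387 ± 12.4 CPM, above all libraries of the next class. On this scale it was lowest in alveolar macrophage-like cells at 121 ± 22.9 CPM, which overlapped CD8 T cell-like cells. Nfkb2 was at 74.3 ± 11.6 CPM in nonclassical monocyte-like cells and 66.8 ± 9.19 CPM in neutrophil-like cells, and these 2 classes overlapped on this scale. Relb was at 64.0 ± 2.42 CPM in B cell-like cells, where the alternative pathway acts downstream of the BAFF receptor. The next class, the Retnla and C1qa cluster, was at 47.9 ± 11.2 CPM and did not reach it. Nfkbib varied least, from 63.7 ± 8.28 CPM in nonclassical monocyte-like to 27.2 ± 2.47 CPM in CD8 T cell-like cells, with each class overlapping its neighbour. On this scale Nfkb1 and Relb were both lowest in alveolar macrophage-like cells, and no other member was, among the 11 classes. With CPM scaled within a class, Nfkb1 was at 92.8 and 131 CPM in KO and 107 and 73.5 CPM in WT neutrophil-like cells. Alveolar macrophage-like cells were then at 101 and 143 CPM in KO and 145.3 and 145.2 CPM in WT. The lowest class of Nfkb1 thus depends on the scaling.

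**Figure D4:**
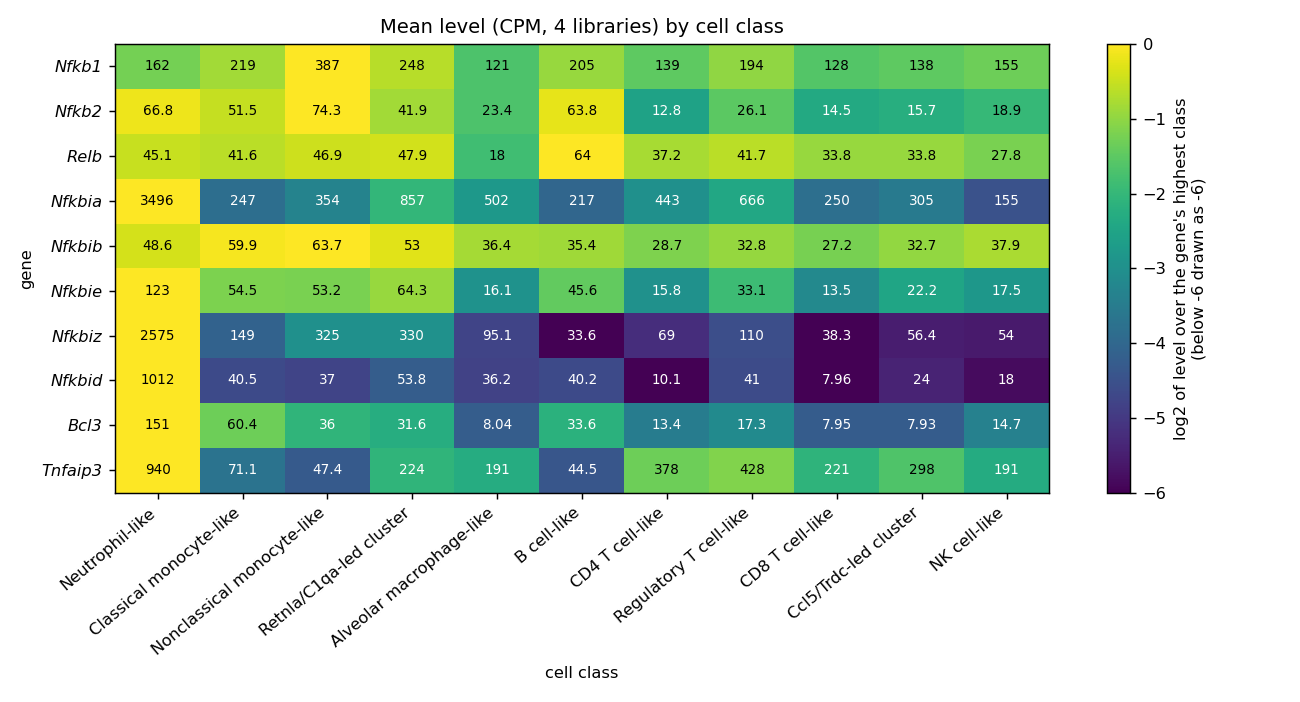
Mean level of each member (rows) in each of the 11 classes (columns), printed as CPM over 4 libraries and colored by the log2 ratio to the highest class of that gene. The neutrophil-like column is highest for Nfkbia, Nfkbie, Nfkbiz, Nfkbid, Bcl3 and Tnfaip3, and Relb is highest in B cell-like cells.

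Among T cell-like classes Tnfaip3 separated from the monocyte-like classes. It was at 428 ± 21.7 CPM in regulatory T cell-like and 378 ± 37.5 CPM in CD4 T cell-like cells, which overlapped, and at 71.1 ± 12.9 CPM in classical and 47.4 ± 6.55 CPM in nonclassical monocyte-like cells. Nfkbiz was instead higher in nonclassical monocyte-like cells, at 325 ± 11.4 CPM, than in regulatory T cell-like cells, at 110 ± 19.4 CPM, and CD4 T cell-like cells, at 69.0 ± 6.64 CPM. Its level in classical monocyte-like cells overlapped that of regulatory T cell-like cells. On this scale Nfkbiz in alveolar macrophage-like cells was at 40.55 and 36.95 CPM in KO, close to the 38.3 ± 5.08 CPM of CD8 T cell-like cells, and at 164 and 138 CPM in WT, close to the 149 ± 17.7 CPM of classical monocyte-like cells.

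The genes whose levels most resembled Nfkbiz over the 44 sums, among 8338 genes, were Ier2 and Pim1 (Pearson r = 0.937 each), Ston2 (0.934), Kdm6b (0.925) and Trpm2 (0.924). For Nfkbia they were Klf6 (0.896), Csrnp1 (0.877), Dhrs9 and Cd101 (0.875 each) and Mmp9 (0.860). All 10 were highest in neutrophil-like cells among the 11 classes. Between members the closest pairs were Bcl3 with Nfkbie (0.88) and Nfkbiz with Nfkbia and with Nfkbid (0.84 each). The 44 sums share 4 mice and differ in depth, so these values describe the order of classes.

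Classes with too few cells for a test had their own patterns, given as unscaled CPM of the UMIs summed over a genotype, with exact Poisson 95% intervals that cover counting error only. In basophil or mast cell-like cells (47 KO and 42 WT cells), Nfkbia was at 7296 (6965 to 7639) in KO and 6709 (6375 to 7056) in WT. Tnfaip3 was at 2327 (2141 to 2524) in KO and 2236 (2045 to 2441) in WT there. Nfkbiz was at 1602 (1449 to 1767) in KO and 2134 (1948 to 2334) in WT, and Nfkbid at 112 (74.5 to 162) in KO and 359 (285 to 447) in WT, so that the counting intervals of these genes did not overlap. These sums have no replicate check. In mature migratory dendritic cell-like cells (38 KO and 9 WT cells), Relb was at 588 (523 to 658) in KO and 598 (477 to 741) in WT, and Nfkb2 was at 333 (285 to 387) in KO and 192 (127 to 280) in WT. Nfkb1 was at 717 (645 to 794) in KO and 242 (168 to 338) in WT there, and Nfkbib at 270.3 (227 to 319) in KO and 150 (92.6 to 229) in WT. Tnfaip3 was at 219 (181 to 264) in KO and 484 (376 to 614) in WT, from 9 WT cells. Nfkbid was at 35.3 (20.9 to 55.7) in KO and 128 (76.0 to 203) in WT. The counting intervals of Nfkb1, Nfkb2, Nfkbid and Tnfaip3 did not overlap in this class, and those of the other members did. Dendritic cells are known to depend on Relb for their maturation. In plasmacytoid dendritic cell-like cells (23 KO and 50 WT cells), Nfkbia was only at 143 (97.8 to 202) in KO and 113 (85.3 to 147) in WT.

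The other genes of the pathway were taken from lists of receptors, ligands, adaptors, kinases, negative regulators and target genes. Of 120 such genes 96 were tested in alveolar macrophage-like cells, of which 11 were lower and 2 higher in KO, beside 3.27% and 3.65% of all genes. Their median log2 fold change was -0.03. Upstream of the members, 1 of 12 receptors was lower, Tlr2, which senses bacterial lipopeptides (386 and 509 CPM in KO, 615 and 589 CPM in WT, adjusted p = 0.0489). Of 13 adaptors 2 were lower. Among them, Birc3, a ubiquitin ligase of the tumor necrosis factor receptor complex, was at 18.6 and 28.2 CPM in KO and 44.1 and 41.2 CPM in WT (adjusted p = 0.0477). None of 15 kinases, 6 ligands or 3 linear ubiquitin ligase genes passed.

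The remaining DNA-binding subunits, Rela and Rel, did not pass. Rel was at 93.0 and 73.2 CPM in KO and 128 and 117 CPM in WT (-0.55 ± 0.18, adjusted p = 0.0559), and Rela was at 51.2 and 48.8 CPM in KO and 60.4 and 66.1 CPM in WT (-0.33 ± 0.21, adjusted p = 0.398). Of 14 further negative regulators 1 was lower, Zc3h12a, which encodes the ribonuclease Regnase-1 that degrades inflammatory mRNAs (49.6 and 58.2 CPM in KO, 95.65 and 78.8 CPM in WT, adjusted p = 0.0293).

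Of 31 target genes 7 were lower and 2 higher in KO alveolar macrophage-like cells, with a median log2 fold change of 0.05. Tnfaip2, a gene induced by tumor necrosis factor, was at 474 and 623 CPM in KO and 1200 and 1049 CPM in WT (-1.04 ± 0.14, adjusted p = 5.26e-06). Zfp36, which encodes the mRNA decay factor tristetraprolin, was at 494.5 and 481 CPM in KO and 788 and 712 CPM in WT (adjusted p = 0.00203). Cd83, a maturation marker, was at 76.0 and 78.9 CPM in KO and 186 and 125.5 CPM in WT (adjusted p = 0.00370). Cd44, the hyaluronan receptor, was at 1543 and 1354 CPM in KO and 2279 and 2028 CPM in WT (adjusted p = 0.00266). These 4 had both KO libraries below both WT libraries.

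The higher target genes were Bcl2a1b and Ccnd1. Bcl2a1b, a survival gene with near-identical copies that may share its reads, was at 442 and 443 CPM in KO and 300 and 349 CPM in WT (adjusted p = 0.0353). Ccnd1, which encodes cyclin D1, had 8 and 7 UMIs in KO and 3 in each WT library, a ratio of 14.0 with an exact counting interval of 5.15 to 44.1 (adjusted p = 0.000980).

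Of 25 immediate early genes, 10 were lower and 0 higher in KO alveolar macrophage-like cells, with a median log2 fold change of -0.485. Zfp36, Junb and Ier3 are in both this list and the target list. Nr4a1, an orphan nuclear receptor gene, was at 93.0 and 122 CPM in KO and 349 and 262 CPM in WT (-1.52 ± 0.18, adjusted p = 2.16e-06). Fosb, a subunit of AP-1, was at 246.5 and 229 CPM in KO and 686 and 451 CPM in WT (adjusted p = 0.00145). Ier2, also among the genes most like Nfkbiz across classes, was at 189 and 208 CPM in KO and 360 and 359 CPM in WT (adjusted p = 0.000128). Dusp1, a phosphatase that turns off p38 and JNK, was at 660 and 633 CPM in KO and 1004 and 962 CPM in WT (adjusted p = 0.00189). The same list had median log2 fold changes of -0.18 to 0.66 in the other 10 classes, with 0 genes lower in any of them. Genes of the list called higher in KO, named after their values were seen, were Egr1 (79.0 and 48.7 CPM in KO, 8.92 and 2.456 CPM in WT, adjusted p = 0.000327), Nr4a1 and Egr3 in the Ccl5 and Trdc cluster, Jun in NK cell-like and nonclassical monocyte-like cells and Ier3 in neutrophil-like cells.

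**Figure D5:**
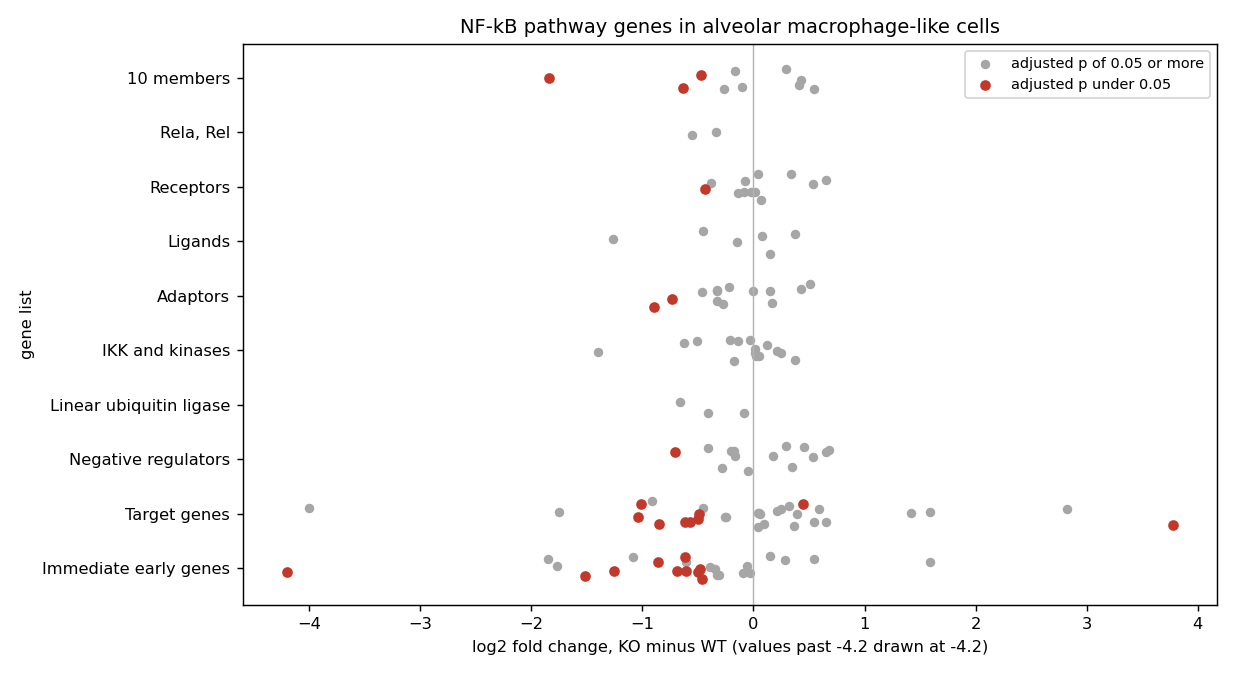
Log2 fold change, KO minus WT (x axis), of each tested gene of the pathway lists and of the immediate early list in alveolar macrophage-like cells (rows, 1 point a gene, red where the adjusted p was under 0.05). Of the 10 members 3 are red and left of 0, and of 25 immediate early genes 10 are red and left of 0.

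In the other 10 classes the pathway lists gave 781 tests, of which 10 were called higher and 2 lower in KO. Over all genes of a class 0.0210% to 1.03% were called higher and 0.246% to 0.711% lower. In the Retnla and C1qa cluster these shares were 1.03% and 0.270%. The genes below were named after their values were seen. In the Retnla and C1qa cluster the chemokine genes Cxcl3 (113 and 217 CPM in KO, 1.202 and 1.268 CPM in WT, adjusted p = 0.00112) and Ccl2 were higher, with Bcl2a1b and Sod2. In neutrophil-like cells Ier3 was at 830 and 1130 CPM in KO and 338 and 421 CPM in WT (adjusted p = 0.00788), and Ccl4 was at 1694 and 1201 CPM in KO and 707 and 684 CPM in WT (adjusted p = 0.0230). In nonclassical monocyte-like cells Il1b was at 1579 and 1540 CPM in KO and 1004 and 1103 CPM in WT (adjusted p = 0.0379). Cd40lg, the ligand of CD40, was lower in CD4 T cell-like cells at 27.8 and 39.9 CPM in KO and 60.9 and 60.05 CPM in WT (adjusted p = 0.0324), and in regulatory T cell-like cells (adjusted p = 0.0291). The remaining calls were Bcl2a1b in classical and nonclassical monocyte-like cells and Cxcl10 in regulatory T cell-like cells, all higher in KO. The Retnla and C1qa cluster and the neutrophil-like class hold the mostly KO subclusters described above, whose part in these differences was not tested. Ier3 was among the leading genes of the neutrophil-like one, which had 17 and 29 KO cells and 0 and 2 WT cells. Ccl2 was among the leading genes of the part led by Ccl7 and Mmp12. None of these classes had a member that passed.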

How the data were processed

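The authors deposited raw UMI counts for each gene and barcode in 1 matrix a library. Per the submitters' processing notes, Cell Ranger 3.0.2, Seurat 3.0.0 and the mm10 genome were used by the authors, with no roles given, and the counts are whole numbers without normalization. The deposited gene and barcode lists hold identifiers only. Free RNA was not subtracted.

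Barcodes needed 200 genes or more and no more than 10% mitochondrial UMIs, and the highest doublet scores (103 to 124 cells a library) were removed. The 2000 most variable genes, without the 10 members, gave 30 components and, with 20 neighbours a cell, 26 Leiden clusters (resolution 1) (leidenalg 0.10.2). A cluster took the name of the class, of 25, with the highest mean log2 marker enrichment, if this was at least 1.0 and at least 3 markers were detected. Clusters made up mostly of called doublets took no name, and clusters with Rag1 or Dntt among their top 10 genes were named T cell precursor-like. Own markers also had to outnumber those of any other class among the top 10 genes, unless no other class had a marker there. The enrichment minimum and this last rule were set after the clusters were seen. The members and lists were chosen with earlier results of these data known, and the kappa-B consensus after the promoters were seen.

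Summed UMIs passed filterByExpr, TMM scaling and, class by class, a test with edgeR 4.0.16 (robust quasi-likelihood), KO minus WT, Benjamini-Hochberg over all genes tested, threshold 0.05. Replicate libraries differed beyond sampling noise, at 1.66 to 5.04 chi-square units for each degree of freedom. The alveolar macrophage-like sums held 664900 and 544200 UMIs in KO and 3717000 and 3070000 in WT, so KO values are the less precise. CPM beside a test are scaled within the class. The test of the difference between classes used genes with at least 10 UMIs in every class. Named genes were the members, Lmna, the 4 called genes of each list with the smallest p in each direction, and the 5 genes most like Nfkbiz and Nfkbia. A gene that the rule names is not reported here. The model was checked on simulated data, with a fixed spread for all genes and changes larger than those of Tnfaip3 and Nfkbia. That check does not cover calls of their size.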

Additional observations from a re-analysis of the deposited data

Results flagged for a closer look

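The effect of the knockout on 2 members differed between classes by a test of the difference itself. For Nfkbiz the effect in alveolar macrophage-like cells minus the mean effect in the other 10 classes was -1.907 on the log2 scale (adjusted p = 4.94e-10), with 46.5 and 43.2 CPM in KO and 174.7 and 147.5 CPM in WT alveolar macrophage-like cells. For Tnfaip3 that difference was -0.6147 (adjusted p = 0.0223), with 136 and 195 CPM in KO and 249 and 261 CPM in WT. With 2 libraries a group, no test for a single library far from its group could be made.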

How the results depend on the processing

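Nfkbiz kept its direction and its call in alveolar macrophage-like cells under all 15 alternatives, of which 2 (Leiden resolution 2 and the removal of subclusters) left these cells as they were and so are no test of it, from -1.6 on the log2 scale with the stricter cell filter (adjusted p = 0.00497) to -2.062 with cells thinned to equal depth, and in the difference between classes under all 7 alternatives. The weaker calls did not hold everywhere. The number of members called was 1 by DESeq2 and with the stricter cell filter, and 1 to 3 with a library left out. Nfkbia was not called by DESeq2 (-0.4604), with the stricter filter (-0.3005), with cells gated by their own markers (-0.4452) or thinned (-0.4938), and was at -0.3158 to -0.6311 with a library left out. Tnfaip3 was not called by DESeq2 (-0.622) or with the stricter filter (-0.5921), and was at -0.3912 to -0.8941 with a library left out. The number of genes called in these cells, 627, was 229 by DESeq2, 267 with the stricter filter, 265 with thinned cells and 233 to 570 with a library left out. It was 390 without WT 2 and 371 without KO 1, and lowest without WT 1. Outside these cells 0 to 1 member calls were made with a library left out, the 1 without KO 2. The Tnfaip3 difference between classes was -0.6119 without the library block (adjusted p = 0.0647) and ran from -0.3946 to -0.8396 with a library left out, and that of Nfkbia from -0.8985 to -0.4779. Nfkbid changed sign with the stricter filter (0.03193) and without WT 1 (0.001853) or KO 2, with a range of -0.4867 to 0.1573 over the libraries left out, and Nfkbie with thinned cells (-1.421). In the difference between classes, with a library left out, Nfkbid ran from -0.6021 to 0.03114 (without WT 1), Relb from -0.1536 to 0.01289 (without KO 2, and 0.01091 without WT 2) and Nfkbie from -0.1554 (without KO 2) to 0.6105. None of these was called, and the cause of these changes was not tested. The stricter filter left 27 and 16 KO cells and 77 and 99 WT cells. Genotypes share replicate numbers only, which the labels do not tie to a litter or day. Deviations of same-numbered libraries in alveolar macrophage-like cells had a correlation of -0.00868. With the replicate number as a block Nfkbiz was at -1.846, Tnfaip3 at -0.6395 and Nfkbia at -0.4711, and no call of a member changed. An alternative without 2 subclusters of mostly KO cells was chosen after seeing the data and changed no call of a member. Where a library is left out, the lone library of its genotype is assumed to vary like the others. The precision is limited by 2 mice a genotype and by few KO alveolar macrophage-like cells.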
